A study of Mus musculus with 135 samples.

Results

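The 9 genes described here encode enzymes that make and break down the endocannabinoids and the receptors that bind them: Dagla, Daglb, Napepld, Mgll, Abhd6, Abhd12, Faah, Cnr1 and Cnr2. They were picked by symbol and not by a cutoff on measured values, though earlier results of these data were known. All 9 were found among the 55416 genes of each count table. RNA-seq was performed on cortex and hippocampus of male Townes mice aged 6 months, in which human globin genes replace those of the mouse. AA mice carry human genes for normal hemoglobin and served as controls, whereas SS mice carry the sickle form. Mice without further intervention are called AA and SS. AA + RSD and SS + RSD mice went through repeated social defeat (RSD), an encounter with an aggressor mouse for 2 hours a day over 6 days. AA + RSD + minocycline and SS + RSD + minocycline mice also received minocycline, a tetracycline antibiotic that dampens microglial activation, at 90 mg/kg in drinking water from 1 day before the first defeat, and AA + minocycline and SS + minocycline mice received the drug without RSD.

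Endocannabinoids are lipids that neurons make on demand from their membranes. 2-arachidonoylglycerol (2-AG) is released from diacylglycerol by the diacylglycerol lipases DAGLα (Dagla) and DAGLβ (Daglb), travels backwards across the synapse, and acts on the CB1 receptor (Cnr1) of the presynaptic terminal, where transmitter release is lowered. It is then hydrolysed mainly by monoacylglycerol lipase (Mgll), and also by the serine hydrolases ABHD6 (Abhd6) and ABHD12 (Abhd12). Anandamide is formed from N-acyl phosphatidylethanolamines, among other routes by NAPE-PLD (Napepld), and is broken down by fatty acid amide hydrolase (Faah). CB1 is among the most abundant G protein-coupled receptors of the brain and is dense on cholecystokinin interneurons, whereas the CB2 receptor (Cnr2) is known mainly from immune cells.

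The 68 cortex and 66 hippocampus libraries with a known group held 16295042 to 107713193 and 12869149 to 68731008 reads on genes, respectively. A pair of mice, one labelled AA + RSD + minocycline and the other SS + minocycline, had identical counts in each tissue, and both libraries of AA + RSD mouse 9674 carried the markers of the other tissue (a log2 difference of hippocampus minus cortex markers of 1.26 in its cortex library, against -3.57 to -1.56 in the others). These libraries were left out, as was 1 library whose labels named both tissues, which left 65 cortex and 63 hippocampus libraries. In 5 further cortex libraries the summed cortex markers were 253 to 312 counts per 1000000 reads on genes (CPM) against a median of 648 CPM, and in hippocampus library 9810 they were 461 CPM against 182 CPM. The libraries of 4 mice (5844, 5853, 7078 and 9631) had red cell or globin messages that went against their genotype labels. They were kept, and leaving them out is among the alternatives. Mouse numbers fell into separate runs, grouped here as 3 number series: A (5349 to 5400 and 9615 to 9674), B (5645 to 5900 and 9810 to 9910) and C (7037 to 7121 and 10633 to 10639). What the runs stand for is not given in the sources used here. All mice with RSD alone belonged to series A and all mice with RSD and minocycline to B or C, and untreated AA and SS mice came from A and B. RSD + minocycline against RSD therefore has no series in common and cannot be told apart from the series directly, while RSD against untreated mice could also be compared within series A, with 2 SS mice and 4 (cortex) or 3 (hippocampus) AA mice as controls.

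Except for Cnr2, the messages of the endocannabinoid genes were abundant in both tissues, and Abhd12 and Mgll ranked first and second. Levels of different genes are compared as CPM per kilobase of the canonical transcript in the 20 cortex and 18 hippocampus libraries of untreated AA and SS mice. In cortex the mean was 136 ± 15.8 CPM per kilobase (SD, n = 20) for Abhd12 and 81.7 ± 6.24 for Mgll. It was 28.6 ± 5.03 for Faah, 23.97 ± 3.14 for Dagla, 22.7 ± 2.598 for Abhd6 and 21.6 ± 2.99 for Cnr1. These 4 formed a middle group, in which Dagla lay above Abhd6 in 12 of 20 libraries and Abhd6 above Cnr1 in 12 of 20. Daglb at 11.6 ± 1.01 and Napepld at 4.65 ± 0.399 CPM per kilobase followed, each range apart from that of its neighbours. Cnr2 was last at 0.119 ± 0.044 CPM per kilobase. In absolute terms this was 4 to 29 reads per untreated cortex library, so that Cnr2 was measured with far less precision than the other 8 genes.

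In the hippocampus the order was Abhd12 (136 ± 18.8 CPM per kilobase, SD, n = 18), Mgll (59.4 ± 8.29), Faah (45.3 ± 7.32), Dagla (32.4 ± 6.30), Cnr1 (28.9 ± 4.55), Abhd6 (24.1 ± 2.68), Napepld (9.35 ± 1.25), Daglb (9.06 ± 0.781) and Cnr2 (0.104 ± 0.0246). The neighbours whose ranges overlapped were Mgll and Faah (in this order in 17 of 18 libraries), Faah and Dagla (18 of 18), Dagla and Cnr1 (11 of 18), Cnr1 and Abhd6 (13 of 18), and Napepld and Daglb (9 of 18). Among the 3 hydrolases of 2-AG, Abhd12 made up 56.4% ± 2.10 of the summed messages per kilobase in cortex and 61.8% ± 2.06 in hippocampus. Mgll made up 34.1% ± 1.88 and 27.1% ± 1.84, and Abhd6 9.48% ± 0.789 and 11.1% ± 0.839. Dagla exceeded Daglb by a ratio of 2.08 ± 0.290 in cortex and 3.58 ± 0.586 in hippocampus, and Faah exceeded Napepld by 6.19 ± 1.197 and 4.86 ± 0.671. The ranking, the shares and the ratios depended on the length used. Per kilobase of all annotated exons, which span 13582 bases for Abhd12 against 1999 bases in its canonical transcript, Mgll came first (48.6 ± 3.71 in cortex) and Abhd12 second (19.96 ± 2.32). By this length Mgll and not Abhd12 held the largest share of the 2-AG hydrolases, with Abhd6 at 7.84 in cortex. Dagla was at 13.4 and Daglb at 3.29 in cortex, and Cnr1 ranked 3 and Faah 5 in both tissues.

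**Figure D1:**
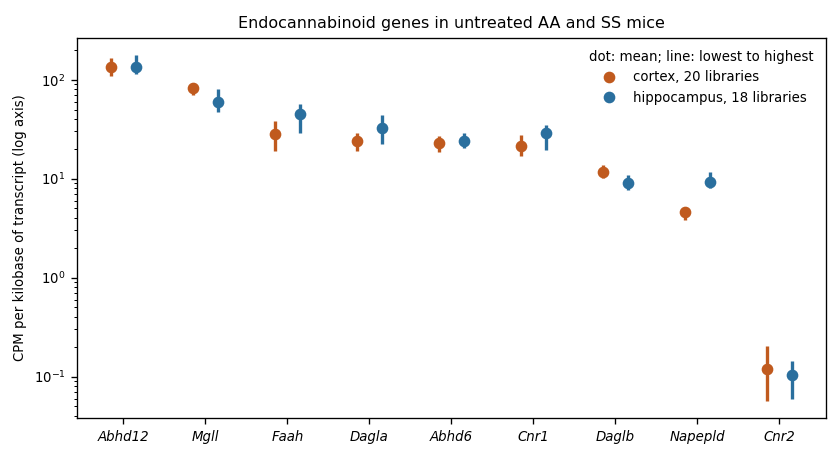
Message level of each gene in untreated AA and SS mice, in CPM per kilobase of canonical transcript on a log axis, for cortex (20 libraries) and hippocampus (18 libraries). Dots are means and lines run from the lowest to the highest library. Abhd12 and Mgll lie at the top and Cnr2 lies at about 0.1, far below the other 8 genes.

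The positions of the genes in GRCm39 are as follows: Abhd12 on chr2:150674408-150746693 (minus strand), Mgll on chr6:88652108-88805342 (plus), Abhd6 on chr14:14411450-14468795 (minus), Dagla on chr19:10222629-10282320 (minus), Daglb on chr5:143450236-143496130 (plus), Napepld on chr5:21867688-21923575 (minus), Faah on chr4:115824342-115875423 (minus), Cnr1 on chr4:33922982-33948836 (plus) and Cnr2 on chr4:135622696-135647518 (plus). All are annotated as protein-coding. Exons of Daglb overlap those of Rac1 on the opposite strand over 16.1% of their length, and Mgll (8.03%, Gm26588) and Napepld (5.03%, Armc10) have shorter overlaps. Cnr1 (2.16%, Gm33105), Abhd6 (1.98%, Gm62226) and Abhd12 (0.582%, Gm75588) have the smallest ones. Whether the counting used strand is not given in the sources used here, so part of the reads of these genes may belong to the opposite strand.

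Promoter windows of 250 bases before to 50 bases after the transcription start were taken from RefSeq (GRCm38.p6) and matched by symbol for 7 of the 9 genes. Those of Napepld, Faah and Mgll are shown because these genes differed most between the tissues. The capitals mark a GC box, searched as GGGCGG or its reverse complement CCGCCC on either strand. The Napepld window (chr5:21701573-21701872, minus strand), the Faah window (chr4:116017875-116018174, minus strand) and both Mgll windows (chr6:88724162-88724461 and chr6:88724454-88724753, plus strand) read 5′ to 3′ as follows.
Napepld: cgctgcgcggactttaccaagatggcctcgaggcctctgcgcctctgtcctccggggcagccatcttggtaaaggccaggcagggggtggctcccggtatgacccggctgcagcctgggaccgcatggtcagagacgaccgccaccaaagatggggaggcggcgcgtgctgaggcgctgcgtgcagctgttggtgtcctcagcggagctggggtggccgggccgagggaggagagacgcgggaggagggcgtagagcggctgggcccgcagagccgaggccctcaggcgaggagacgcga
Faah: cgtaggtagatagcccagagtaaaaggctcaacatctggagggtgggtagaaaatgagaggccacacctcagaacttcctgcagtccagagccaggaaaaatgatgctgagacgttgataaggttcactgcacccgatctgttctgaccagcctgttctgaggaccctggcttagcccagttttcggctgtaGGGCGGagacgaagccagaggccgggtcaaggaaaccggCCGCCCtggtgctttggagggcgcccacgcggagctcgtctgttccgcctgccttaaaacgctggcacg
Mgll, window 1: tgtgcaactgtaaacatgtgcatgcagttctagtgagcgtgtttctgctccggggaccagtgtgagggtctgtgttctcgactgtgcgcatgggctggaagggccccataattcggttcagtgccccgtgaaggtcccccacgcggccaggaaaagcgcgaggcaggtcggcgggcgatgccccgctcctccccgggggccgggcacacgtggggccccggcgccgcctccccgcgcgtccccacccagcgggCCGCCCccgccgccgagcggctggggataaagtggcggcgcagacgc
Mgll, window 2: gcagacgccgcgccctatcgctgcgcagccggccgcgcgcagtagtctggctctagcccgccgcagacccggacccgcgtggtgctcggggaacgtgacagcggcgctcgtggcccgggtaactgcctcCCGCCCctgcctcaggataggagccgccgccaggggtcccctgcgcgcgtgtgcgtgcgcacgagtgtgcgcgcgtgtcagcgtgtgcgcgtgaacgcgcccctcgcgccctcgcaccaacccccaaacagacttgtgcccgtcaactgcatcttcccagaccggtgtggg
The Faah window held 2 GC boxes, each Mgll window 1 and the Napepld window 0. Of the 32851 windows in the table, 35.7% held at least 1. The windows held 28 (Napepld), 16 (Faah), 32 and 42 (Mgll) CpG dinucleotides against a median of 7 over all windows. These are matches of letters and were not tested for binding of any factor.

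The first comparison asked how the tissues differ in mice without RSD and minocycline. Of the 9 genes, 4 were higher in the hippocampus (Napepld, Faah, Dagla and Cnr1), 2 were lower (Mgll and Daglb) and 3 did not pass the test. This fit did not pair the tissues of a mouse. The fit with the mouse as a replicate block is given below where it changed a call. The background was large, since 47.8% of the 17946 genes tested were called at an adjusted p of 0.05 (edgeR quasi-likelihood test with Benjamini-Hochberg adjustment over all genes tested, here and in every comparison). The median log2 fold change was 0.07 over the 9 genes and 0.02 over all genes.

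Both genes of the anandamide route were higher in the hippocampus. Napepld ranged from 32.7 to 48.1 CPM (median 36.9) in the 18 hippocampus libraries and from 15.6 to 21.2 CPM (median 19.4) in the 20 cortex libraries. The ranges did not overlap, and the log2 fold change was 0.99 (SE 0.05, adjusted p = 1.02e-19), about a doubling. It was higher in the hippocampus in 18 of 18 untreated mice that gave both tissues and in 45 of 45 mice with RSD, minocycline or both. Faah ranged from 119 to 231 CPM (median 188.0) in hippocampus and from 77.6 to 158 CPM (median 124) in cortex, with a log2 fold change of 0.65 (SE 0.07, adjusted p = 8.81e-11). The ranges overlapped, but Faah was higher in the hippocampus of each single mouse, again 18 of 18 and 45 of 45.

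The 2-AG synthases moved apart. Dagla, the lipase that supplies most 2-AG for synaptic signalling in the adult brain, was higher in hippocampus at 129 to 249 CPM (median 176) against 108 to 166 CPM (median 142) in cortex (log2 fold change 0.42, SE 0.07, adjusted p = 4.25e-06), in 16 of 18 untreated and 43 of 45 other mice. Daglb, the isoform prominent in microglia and macrophages, was lower at 36.7 to 51.4 CPM (median 42.1) against 47.7 to 64.7 CPM (median 54.4), with a log2 fold change of -0.37 (SE 0.04, adjusted p = 1.62e-09). It was lower in the hippocampus of 18 of 18 untreated and 42 of 45 other mice.

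Of the 2-AG hydrolases, Mgll was lower in hippocampus (176 to 299 CPM, median 210.4) than in cortex (256 to 342 CPM, median 300.1), with a log2 fold change of -0.48 (SE 0.06, adjusted p = 3.01e-09), in 17 of 18 untreated and 40 of 45 other mice. Abhd12 averaged 271 ± 37.6 CPM (SD, n = 18) in hippocampus and 271 ± 31.5 CPM (SD, n = 20) in cortex, and its log2 fold change was -0.02 (SE 0.07, adjusted p = 0.875). Abhd6 averaged 58.3 ± 6.46 and 54.9 ± 6.27 CPM, with a log2 fold change of 0.07 (adjusted p = 0.361). Of the untreated mice 18 gave both tissues, and with the mouse as a replicate block Abhd6 passed the test at a log2 fold change of 0.08 (SE 0.03, adjusted p = 0.0136). It was higher in the hippocampus of 14 of 18 untreated and 39 of 45 other mice, by an average of 0.09 and 0.17 on the log2 scale.

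Of the receptors, Cnr1 was higher in hippocampus at 124 to 226 CPM (median 191) against 110.1 to 177 CPM (median 134) in cortex (log2 fold change 0.40, SE 0.07, adjusted p = 2.51e-06), in 16 of 18 untreated and 40 of 45 other mice. Cnr2 averaged 0.402 ± 0.0954 CPM in hippocampus and 0.463 ± 0.171 CPM in cortex (log2 fold change -0.24, adjusted p = 0.211). The 6 calls held in each of the 10 alternatives run, AA mice alone and SS mice alone among them. In bulk tissue, fewer cells of a type and less RNA per cell cannot be told apart. Lists of cell type markers also differed between the tissues: 4 of 6 neuronal markers were lower in hippocampus (summed level 4758 to 5949 against 6345 to 7722 CPM), 4 of 6 astrocyte markers were higher and 1 lower, and 2 of 6 markers of cholecystokinin interneurons were higher and 4 lower. All 5 choroid plexus markers were higher, with sums from 28.4 to 4368 CPM in hippocampus and 4.97 to 1194 CPM in cortex. Their part in these differences was not tested.

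**Figure D2:**
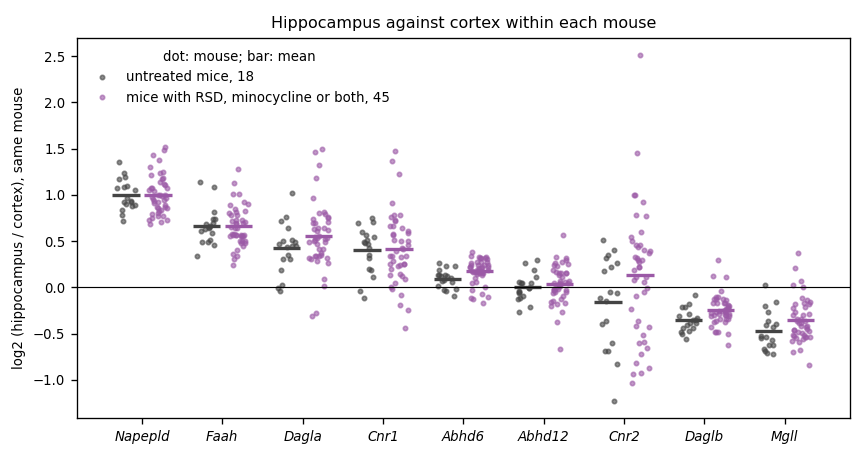
Log2 ratio of hippocampus to cortex CPM within each mouse that gave both tissues, by gene, for 18 untreated mice and 45 mice with RSD, minocycline or both. Dots are mice and bars are means. Napepld and Faah lie above 0 in each mouse, while Daglb and Mgll lie mostly below 0 and Abhd12 is centred near 0.

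The comparison of SS + RSD + minocycline with SS + RSD mice sets stressed sickle mice with the drug against those without it. These groups share no number series, so drug and series cannot be told apart in it. In the hippocampus Mgll was the only one of the 9 genes called, and it was lower in the SS + RSD + minocycline mice. In the 6 SS + RSD mice Mgll was measured at 218, 257, 269, 237, 228 and 229 CPM, and in the 14 SS + RSD + minocycline mice it ranged from 156 to 226 CPM (median 208). The groups overlapped, but 11 of 14 treated mice were below all 6 SS + RSD mice. The log2 fold change was -0.31 (SE 0.08, adjusted p = 0.0322), against a background of 5.96% of 20701 genes called. The fits scale libraries by TMM factors, whose group means differed by up to 0.12 on the log2 scale between the groups compared, so a fold change can depart from the ratio of mean CPM by that much.

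The Mgll call was narrow. Leaving out 1 of the 6 SS + RSD mice at a time kept the direction (log2 fold change -0.34 to -0.26) but left the call in 1 of 6 cases, without mouse 9621 (adjusted p = 0.0479), and ended it without mouse 5354, 5391, 5400, 9615 or 9616 (adjusted p 0.0599 to 0.0758). A term for the number series brought the log2 fold change to -0.18 (SE 0.16, adjusted p = 0.66), and one for the share of reads outside genes to -0.17 (adjusted p = 0.70). That share had a median of 4.38% in SS + RSD and 9.32% in SS + RSD + minocycline hippocampus. Among untreated mice Mgll was lower in number series B than in A as well, at 176 to 253 CPM in 13 mice against 204 to 299 CPM in 5 mice (log2 fold change -0.32, adjusted p = 0.0109). That call was lost in 3 of 6 alternatives: library totals alone (-0.20, adjusted p = 0.0725), the share of reads outside genes as a term (-0.28, adjusted p = 0.146), and without mice 5844, 5853, 7078 and 9631 (-0.23, adjusted p = 0.0653). Astrocyte markers summed to a median of 2143 CPM in SS + RSD + minocycline against 2600 CPM in SS + RSD hippocampus, with 1 of 6 markers called lower, and 1 of 5 endothelial and 1 of 6 microglial markers were also called lower. Of the choroid plexus markers 1 of 5 was called lower, with sums of 22.8 to 2235 CPM (median 39.5) against 35.3 to 9242 CPM (median 40.8). Their part in the Mgll difference was not tested.

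In cortex none of the 9 genes passed the test in this comparison by edgeR, against a background of 8.85% of 19906 genes called, and 3 had an unadjusted p under 0.05 (Abhd6, Abhd12 and Mgll); DESeq2 called 0 of the 9. Abhd6 was measured at 45.1 to 74.5 CPM in SS + RSD (62.1 ± 11.8, SD, n = 6) and 45.03 to 63.6 CPM in SS + RSD + minocycline (53.5 ± 6.15, n = 14), with a log2 fold change of -0.33 (SE 0.11, adjusted p = 0.0515). The lowest SS + RSD value came from mouse 9621, whose cortex library had low cortex markers (292 CPM). Without this mouse Abhd6 was called at a log2 fold change of -0.41 (adjusted p = 0.0264). Over 16 alternatives its log2 fold change ran from -0.41 to -0.00, and 2 of them called it. The ranges were -0.33 to -0.02 for Abhd12 and -0.41 to -0.09 for Mgll, with 0 calls each. Among untreated mice cortex Abhd6 was also lower in series B than in A (-0.28, adjusted p = 0.00513). The share of reads outside genes had a median of 4.2% in SS + RSD and 9.8% in SS + RSD + minocycline cortex. Abhd12 was at -0.30 (SE 0.12, adjusted p = 0.124), and 10 of 14 treated mice lay below all 6 SS + RSD mice. Mgll was at -0.33 (SE 0.14, adjusted p = 0.129), with treated mice from 138 to 344 CPM. The lowest treated values, 138, 166 and 182 CPM, came from the 3 libraries (5801, 9813 and 9890) with low cortex markers. Without the libraries carrying markers of the other tissue, Mgll was at -0.27 (adjusted p = 0.0809). Faah was at 0.27 (SE 0.14, adjusted p = 0.208). Astrocyte markers summed to a median of 1842 against 2235 CPM, with 3 of 6 called lower, and 1 of 5 endothelial, 1 of 6 microglial and 1 of 4 tested red cell markers were called lower as well. Their part was not tested.

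**Figure D3:**
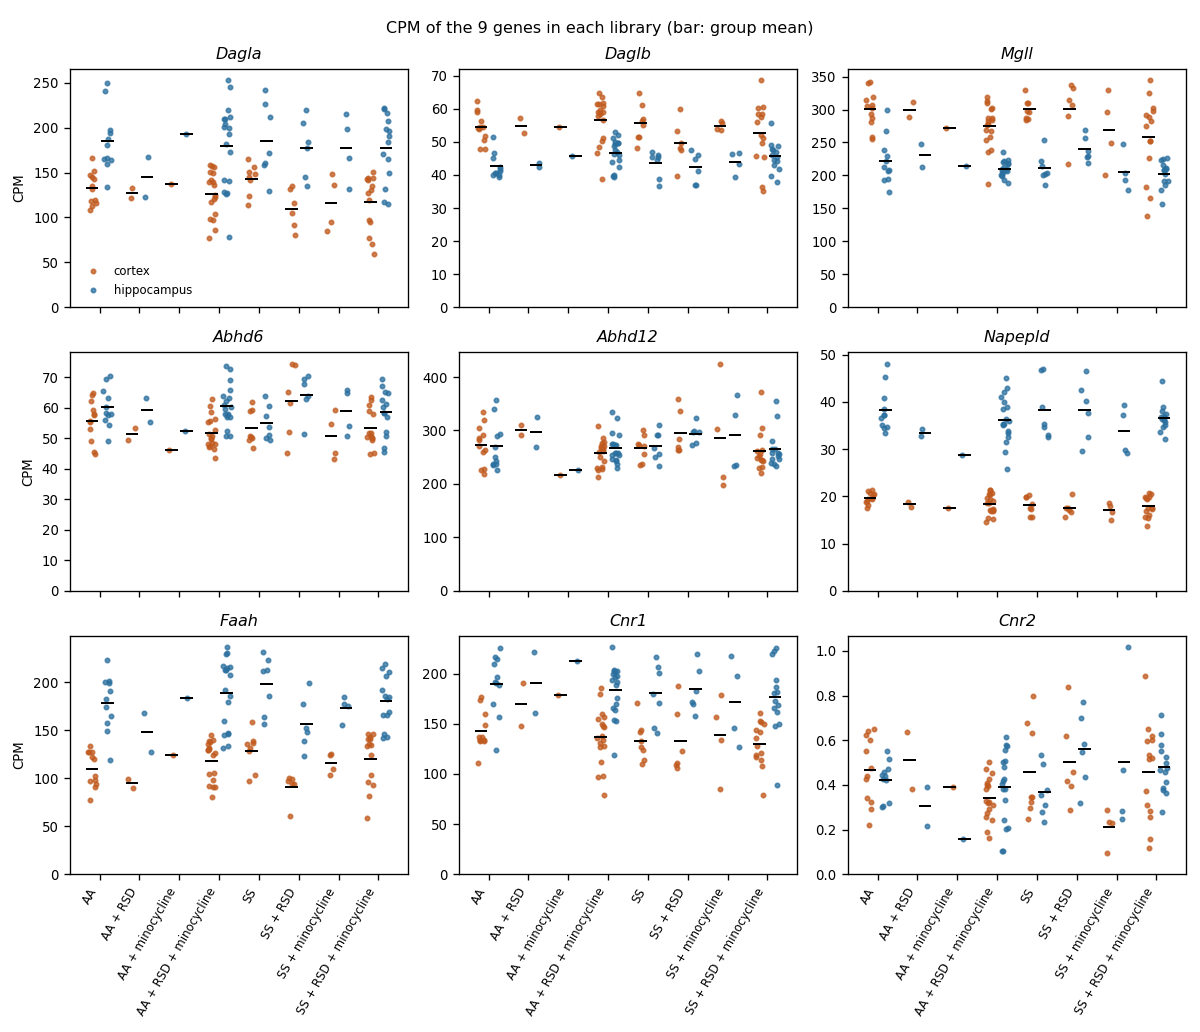
CPM of each of the 9 genes by group in cortex and hippocampus. Dots are libraries and bars are group means. Napepld separates the tissues in each group, and mean Mgll in hippocampus is 240 CPM in SS + RSD and 202 CPM in SS + RSD + minocycline mice.

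The comparison of SS + RSD with SS mice asks what social defeat changes in sickle mice. None of the 9 genes passed the test by edgeR in either tissue, against backgrounds of 2.57% of 19906 genes in cortex and 3.11% of 20701 in hippocampus, and 2 and 4 of them had an unadjusted p under 0.05. DESeq2 called 0 of the 9 in cortex and 1, Mgll, in hippocampus. The anandamide hydrolase Faah had 61.03, 93.5, 93.9, 97.4, 98.9 and 100.1 CPM in the cortex of SS + RSD mice and ranged from 96.8 to 158 CPM (median 134) in 8 SS mice. The log2 fold change was -0.37 (SE 0.15, adjusted p = 0.116), and it passed only in a fit of the compared groups alone (-0.42, adjusted p = 0.0261), which called 3348 of 17394 genes. The 2 SS mice with the lowest Faah, at 96.8 and 103 CPM, were the 2 of number series A, to which all SS + RSD mice belong. Within series A the log2 fold change of Faah was -0.12 (SE 0.19, adjusted p = 1). In hippocampus Faah was at 123 to 199 CPM in SS + RSD and 156 to 231 CPM in SS (log2 fold change -0.23, adjusted p = 0.222).

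The 2-AG hydrolases lay on the other side of 0 in this comparison, without passing the test. Mgll in hippocampus was at 218 to 269 CPM in 6 SS + RSD mice and 186 to 253 CPM in 7 SS mice, with a log2 fold change of 0.28 (SE 0.10, adjusted p = 0.0874). DESeq2 called it at 0.27 (adjusted p = 0.0434). Abhd6 was at 0.33 (SE 0.12, adjusted p = 0.0907) in cortex and 0.32 (SE 0.13, adjusted p = 0.144) in hippocampus, and Abhd12 at 0.26 (adjusted p = 0.208) and 0.21 (adjusted p = 0.398). Within series A, Mgll in hippocampus was at 0.23 (SE 0.11, adjusted p = 0.72) and Abhd6 at 0.09 in cortex and 0.13 in hippocampus. This comparison and the preceding one share the SS + RSD mice, so opposite signs in them are not separate evidence. The share of reads outside genes had medians of 4.2% in SS + RSD and 9.7% in SS cortex, and 4.4% and 7.8% in hippocampus. With that share as a term 0 genes of the whole table were called in SS + RSD against SS cortex. The part of this share in the differences of the 2-AG hydrolases and Faah was not tested.

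The synthases and CB1 showed small differences in the SS groups. Dagla averaged 110 ± 21.97 CPM in SS + RSD cortex (n = 6), 143 ± 16.9 in SS (n = 8) and 117 ± 30.8 in SS + RSD + minocycline (n = 14), with log2 fold changes of -0.26 (adjusted p = 0.33) and -0.04 (adjusted p = 0.895) for the RSD and the minocycline comparison. Daglb was within 0.06 of 0 in both comparisons and tissues. Napepld, the enzyme with the largest tissue difference, stayed between -0.12 and 0.11 in these 4 comparisons. Cnr1 stayed between -0.14 and 0.13, with adjusted p from 0.511 to 0.635. Cnr2 was at 0.71 (SE 0.30, adjusted p = 0.173) in SS + RSD against SS hippocampus, on 8 to 32 reads per SS + RSD library and 16 to 23 reads per SS library. The 4 SS + RSD mice above all 7 SS mice had 0.549 CPM or more.

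**Figure D4:**
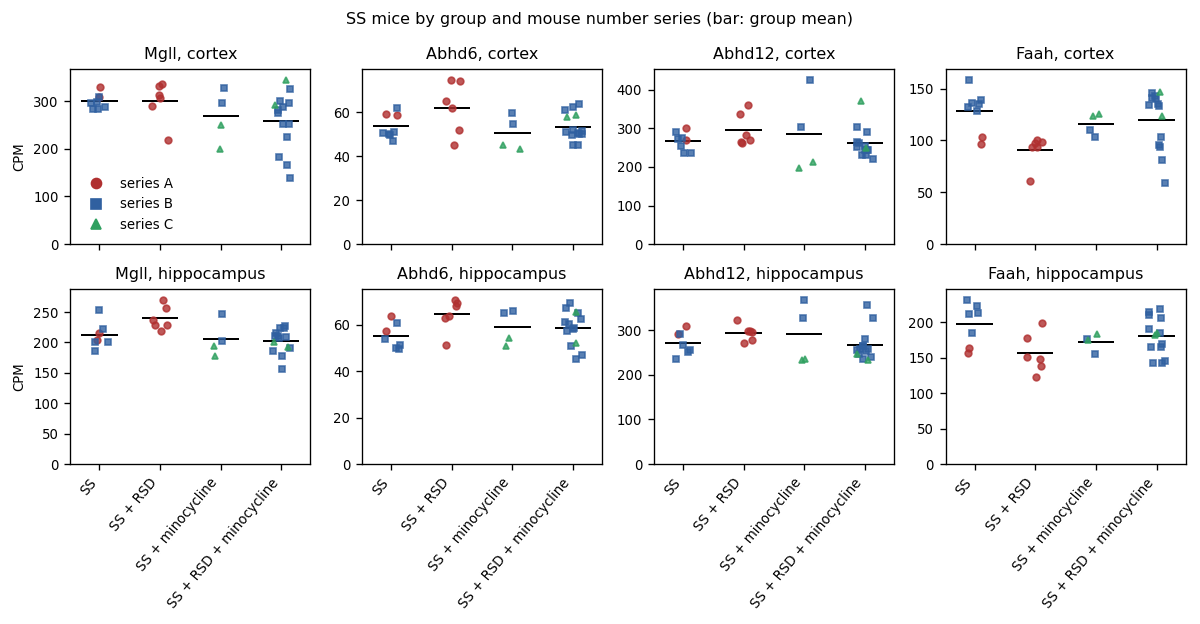
CPM of Mgll, Abhd6, Abhd12 and Faah in SS, SS + RSD, SS + RSD + minocycline and SS + minocycline mice of both tissues, with the number series of each mouse marked. Symbols are mice and bars are group means. All 6 SS + RSD mice are of series A, and none of the 14 SS + RSD + minocycline mice is.

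Minocycline without RSD was compared in 4 SS + minocycline mice. None of the 9 genes passed against SS, by edgeR or DESeq2, with backgrounds of 0.0% of 19906 genes in cortex and 0.0% of 20701 in hippocampus, and 1 (Cnr2 in cortex) and 0 genes at an unadjusted p under 0.05. Abhd12 in the cortex of SS + minocycline mice was measured at 198, 213, 304 and 425 CPM. The lower values came from the 2 mice of series C and the higher ones from the 2 of series B, and the 8 SS mice ranged from 236 to 301 CPM. Its log2 fold change was 0.18 (SE 0.16, adjusted p = 0.844), it turned to -0.12 without mouse 9889, and within series B alone (2 mice against 6) it passed the test at 0.65 (adjusted p = 0.00451), in a fit that called 5225 of 19253 genes. Cnr2 in cortex had 2, 6, 14 and 17 reads in SS + minocycline libraries, or 0.0958 to 0.288 CPM, against 0.246 to 0.797 CPM in SS (log2 fold change -1.02, SE 0.46, adjusted p = 0.68). SS + RSD + minocycline against SS + minocycline likewise called none of the 9 genes by edgeR or DESeq2, with backgrounds of 0.0% in cortex and 0.0% in hippocampus and 1 (Cnr2) and 0 genes at an unadjusted p under 0.05. The 1 AA + minocycline mouse allows no test. It had 272 CPM of Mgll in cortex and 214 CPM in hippocampus, 216 and 227 CPM of Abhd12, and 179 and 213 CPM of Cnr1.

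The genotype comparisons called none of the 9 genes by edgeR. SS against AA had backgrounds of 0.206% in cortex and 0.158% in hippocampus, with 1 and 0 of the 9 genes at an unadjusted p under 0.05. The 1 gene was Napepld in cortex, at 15.6 to 20.3 CPM in 8 SS mice against 17.6 to 21.2 CPM in 12 AA mice (log2 fold change -0.21, SE 0.08, adjusted p = 0.678). Mgll averaged 300.1 ± 15.8 CPM in SS and 300.6 ± 27.4 CPM in AA cortex, and 212 ± 21.4 and 222 ± 35.4 CPM in hippocampus. Faah averaged 129 ± 19.8 and 110 ± 18.2 CPM in cortex (log2 fold change 0.15, SE 0.11, adjusted p = 0.721), and Cnr1 133 ± 19.3 and 143 ± 18.9 CPM (log2 fold change -0.19, adjusted p = 0.699). SS + RSD + minocycline against AA + RSD + minocycline, with 14 and 18 mice in each tissue, had backgrounds of 0.599% and 2.73%, and 1 gene (Daglb in cortex, log2 fold change -0.15, adjusted p = 0.46) and 0 genes at an unadjusted p under 0.05. SS + RSD against AA + RSD rests on 2 AA + RSD mice and had backgrounds of 0.0% and 0.0171%, with 0 genes at an unadjusted p under 0.05 in either tissue. DESeq2 called 0 of the 9 in these genotype comparisons.

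Effects of RSD in AA mice also rest on the 2 AA + RSD mice, 9643 and 9646. Mgll was measured at 311 and 289 CPM in their cortex and 213 and 248 CPM in their hippocampus, inside the AA ranges of 256 to 342 and 176 to 299 CPM. Abhd12 was at 311 and 292 CPM and at 270 and 326 CPM, also inside the AA ranges. Outside the AA range in cortex was Cnr1 of mouse 9646 (191 CPM, AA maximum 177 CPM). In hippocampus, mouse 9643 lay below the AA minimum for Dagla (123 against 134 CPM), Napepld (32.7 against 33.5) and Cnr2 (0.218 against 0.300). AA + RSD against AA (backgrounds of 0.0% in cortex and 0.0419% in hippocampus) and AA + RSD + minocycline against AA + RSD (0.0% and 0.0419%) called none of the 9 genes by edgeR or DESeq2, with 0 of them at an unadjusted p under 0.05. The interaction of genotype and RSD had backgrounds of 0.0% and 0.0128% and called none, with 0 and 1 (Cnr2, log2 1.22, adjusted p = 1) of the 9 at an unadjusted p under 0.05 and 0 called by DESeq2. In total 19 of 20 comparisons between groups called none of the 9 genes by edgeR, and DESeq2 called 1 of them in 1 of these 19 (Mgll in SS + RSD against SS hippocampus).

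Within untreated mice, 4 of the 9 genes differed between number series B and A in cortex and 3 in hippocampus. These counts are near the backgrounds of 40.3% and 40.8% of all genes called and are no result about the 9 genes as a set. In cortex (14 against 6 mice, 40.3% of 19710 genes called) Abhd12 was lower in B at 219 to 304 against 271 to 334 CPM (log2 fold change -0.29, adjusted p = 0.00348). Abhd6 was lower at 44.8 to 62.4 against 55.8 to 64.8 CPM (-0.28, adjusted p = 0.00513) and Mgll at 256 to 340.1 against 294 to 342 CPM (-0.19, adjusted p = 0.0157). Faah was higher at 94.3 to 158 against 77.6 to 103 CPM (0.32, adjusted p = 0.00104), with 12 of 14 B mice above all 6 A mice. In hippocampus (13 against 5 mice, 40.8% of 21210 genes called) Abhd12 was lower at 227 to 292 against 291 to 356 CPM (-0.45, adjusted p = 0.000179), with 12 of 13 B mice below all 5 A mice, and Abhd6 at 49.1 to 63.1 against 57.3 to 70.4 CPM (-0.35, adjusted p = 0.000383). Mgll was lower too, as given above. The share of reads outside genes had medians of 4.94% in A and 9.69% in B in cortex, and 5.05% and 8.29% in hippocampus. With that share as a term none of the 4 cortex calls was left, and with library totals alone Mgll in cortex was at -0.11 (adjusted p = 0.106). In hippocampus Abhd12 and Abhd6 were called in each of 6 alternatives, that term among them. The term left 1 gene of the whole table called in cortex and 3356 in hippocampus. Astrocyte markers were called lower in B for 4 of 6 genes in each tissue, microglial ones for 4 of 6 in each, oligodendrocyte ones for 2 of 6 in cortex and 5 of 6 in hippocampus, endothelial ones for 3 of 5 and 4 of 5, and those of cholecystokinin interneurons for 2 of 6 in each. Of 6 neuronal markers 1 was lower in cortex and 2 in hippocampus. The part of these measures in the difference was not tested.

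**Figure D5:**
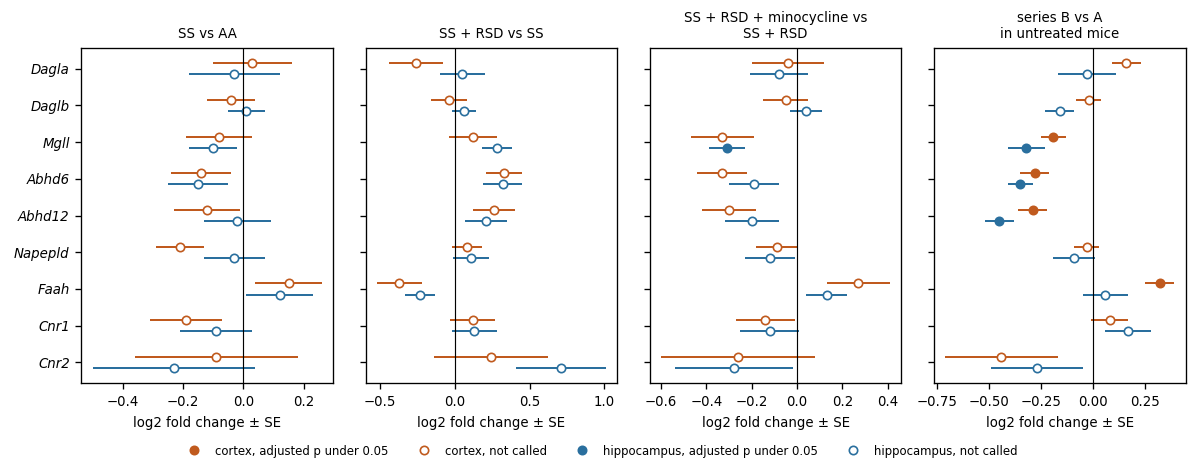
Log2 fold change with its standard error for each of the 9 genes in SS against AA, SS + RSD against SS, SS + RSD + minocycline against SS + RSD, and number series B against A, from edgeR fits over all genes (cortex orange, hippocampus blue). Filled points passed an adjusted p of 0.05. Beyond the number series, the 1 filled point is Mgll in hippocampus for SS + RSD + minocycline against SS + RSD, at -0.31.

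A list of 35 further genes of the pathway was read alongside, all of them in the tables. Between the tissues 28 were tested, of which 8 were higher in hippocampus and 10 lower, against a background of 47.8% of all genes called. The phospholipase C gene Plcg2 (8.95 ± 1.65 CPM in 18 hippocampus against 4.66 ± 0.518 in 20 cortex libraries, log2 fold change 0.92), the brain fatty acid binding protein gene Fabp7 (24.04 ± 10.4 against 12.6 ± 5.78, 0.92) and Gdpd3, a lysophospholipase D gene with 25.0% of its exons on the opposite strand of Gm9967 (1.00 ± 0.471 against 0.593 ± 0.263, 0.72), were higher. Pparg, which encodes a nuclear receptor for fatty acid ligands (1.38 ± 0.298 against 5.05 ± 0.956, -1.88), Plcb4, a phospholipase C that supplies diacylglycerol (26.8 ± 4.97 against 80.2 ± 5.86, -1.61), and the acyltransferase gene Plaat1 (14.7 ± 2.82 against 34.2 ± 2.50, -1.24) were lower. The largest adjusted p of these 6 was 0.00797.

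In SS + RSD + minocycline against SS + RSD mice, 1 of 28 tested pathway genes was higher and 2 lower in cortex, and 0 of 30 were higher and 1 lower in hippocampus, against backgrounds of 8.85% and 5.96% of all genes. These shares are near the background and are no result about the list. Abhd4, whose product cleaves lyso forms of the anandamide precursors, was lower in both tissues (66.3 ± 7.99 against 78.0 ± 8.04 CPM in cortex, log2 fold change -0.35, adjusted p = 0.0197, and 67.2 ± 6.45 against 85.0 ± 8.57 CPM in hippocampus, -0.39, adjusted p = 0.0403). In cortex the COX-2 gene Ptgs2, with 9.29% of its exons on the opposite strand of Ptgs2os, was lower (12.4 ± 3.07 against 18 ± 2.12 CPM, -0.65, adjusted p = 0.0131) and the phospholipase gene Pnpla6 higher (74.9 ± 22.96 against 43.8 ± 5.02 CPM, 0.65, adjusted p = 0.0405). With the number series as a term 0 genes of the whole table were called in either tissue, so the calls of Abhd4, Ptgs2 and Pnpla6 were lost. Pnpla6 was also higher in series B than in A in untreated mice (0.60 in cortex and 0.47 in hippocampus). Between the number series 4 of 28 pathway genes were higher and 9 lower in cortex, and 4 of 30 were higher and 11 lower in hippocampus, near the backgrounds of 40.3% and 40.8% of all genes. In the other group comparisons none of the list passed the test by edgeR, with 0 to 11 of its genes at an unadjusted p under 0.05.

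Some of the genes varied together within groups. Correlations are Pearson's r of log2 CPM after group means were subtracted, over 64 cortex and 62 hippocampus libraries, which share number series, depth and share of reads outside genes, and are given as a description. Abhd6 and Abhd12 rose and fell together (r = 0.69 in cortex and 0.83 in hippocampus), as did Dagla and Faah (0.75 and 0.81) and Mgll and Abhd12 (0.62 and 0.68). Daglb went with Faah (0.64 and 0.45) and with Mgll (0.61 and 0.32), and Mgll weakly with Faah (0.28 and 0.24), so the pairs did not form separate sets. Abhd6 and Faah ran weakly against each other (-0.33 and -0.23), and Mgll and Cnr1 did so mainly in hippocampus (-0.20 and -0.64). The share of reads outside genes itself ran against Abhd6 (-0.72 and -0.63), Abhd12 (-0.67 and -0.53) and Mgll (-0.31 and -0.44). It ran with Faah (0.54 and 0.32) and, mainly in cortex, with Dagla (0.37 and 0.09). For the remaining genes r with this share lay between -0.35 and 0.23. The part of this share in the pairs was not tested. Of all genes, those most like Dagla in cortex were Pcnx2, Dab2ip and Iqsec1 (0.93, 0.93 and 0.92, and 0.64, 0.74 and 0.76 in hippocampus). Faah was most like Plbd2, Trim3 and Sidt1 (0.94, 0.91 and 0.91), Abhd12 most like Nudt18, Rtf2 and Kctd2 (0.93, 0.92 and 0.91) and Abhd6 most like Cep19, Ppp2cb and Ndel1 (each 0.90). Mgll was most like Efhd2, Adap1 and Wnt10a (0.88, 0.87 and 0.87), but the same pairs had r of 0.37, 0.54 and 0.44 in hippocampus. Cnr1 was most like Dyrk2, Abi2 and Trim2 (0.86, 0.84 and 0.83, and 0.87, 0.65 and 0.58 in hippocampus). Daglb was most like Extl1, Dact2 and Gm38910 (each 0.81), but these pairs had r of 0.48, 0.31 and 0.27 in hippocampus. Napepld had no close partner, with Nt5dc3, Prkacb and Fam20b at 0.67, 0.63 and 0.63, and 0.52, -0.10 and 0.13 in hippocampus. Cnr2, at its few reads, reached 0.50, 0.48 and 0.48 with Zfp710, Ttc30a1 and Gtf2e1 in cortex. Those pairs had r of -0.08, 0.07 and 0.16 in hippocampus.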

How the data were processed

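Poly(A) RNA from cortex and hippocampus was sequenced as directional libraries on a NextSeq as single reads. Per the labels, the authors aligned reads with STAR to GRCm39 and obtained reads per gene while mapping with the GENCODE annotation (release, STAR version and strand setting are not given in the sources used here). The deposited values are raw counts, 1 table per tissue. Each table has 4 summary lines (unmapped, multimapping, outside genes, ambiguous), which were left out of library sizes; 3 columns of the tables matched no sample used here and were not read. CPM is counts per 1000000 reads on genes. Counts were fitted in edgeR 4.0.16 (R 4.3.3; filterByExpr with a minimum count of 10, TMM, quasi-likelihood test, Benjamini-Hochberg threshold 0.05), with all groups of a genotype and tissue in 1 model, or all groups of a tissue for comparisons between genotypes. The SE is the log2 fold change divided by the square root of F. Nothing in the labels pairs groups, but 18 untreated mice gave both tissues: the deviations of their libraries from the group means correlated at 0.15 to 0.83 over genes (median 0.49), above 0.1 in 18 of 18 mice. Scripts were tested on simulated data. Alternatives were DESeq2 1.42.0, RLE factors, no filter, other sets of samples, number series or share of reads outside genes as a term, and each mouse of groups of up to 6 left out in turn. Leaving out libraries with markers of the other tissue, fits within series B for further comparisons, the length over all exons, and library totals alone were added after seeing the data. The 9 genes, the pathway and marker lists and all tests were chosen with earlier results of these data known. Named are the 9 genes, the pathway genes called (at most 3 higher and 3 lower per comparison by size) and the 3 genes most like each of the 9 by r in cortex among genes whose mean log2 CPM was 1 or more. The p-values measure the spread between mice, except between the tissues. There the main fit did not pair the tissues of a mouse, so its p-values measure the spread between libraries. Depth gives counting error only.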

Additional observations from a re-analysis of the deposited data

Results flagged for a closer look

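In the cortex of the 6 SS + RSD mice, Faah was lowest in mouse 9621 at 61.03 CPM, far from the other 5 mice at 93.5 to 100.1 CPM. It was the 1 library that stood apart among the 54 gene and group combinations of 4 to 10 mice examined, and chance alone sets about 1 in 20 of them apart. The same library had cortex markers of 292 CPM against a median of 648 CPM over the cortex libraries, and the highest Cnr1 (188 CPM) and the lowest Mgll (218 CPM) of its group. The part of the tissue composition in these values was not tested.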

How the results depend on the processing

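Of 326 counts of the 9 genes called under an alternative, 310 were equal to the reported one or within 1.5 times of it. The reported count was 0 in 19 of the 20 comparisons between groups, and a 0 that stayed 0 is among the 310. The 1 call between groups, Mgll in SS + RSD + minocycline against SS + RSD hippocampus, was made in 8 of 16 alternatives. For SS + RSD + minocycline against SS + RSD the count in hippocampus fell from 1 to 0 with no filter, with number series and with the share of reads outside genes as a term, and was 0 to 1 with an SS + RSD mouse left out. In cortex it rose from 0 to 2 (Abhd6 and Faah) without the libraries carrying markers of the other tissue, and was 0 to 1 with an SS + RSD mouse left out. It rose from 0 to 1 for SS + RSD against SS in cortex (only the groups compared, Faah, with 3348 genes called) and hippocampus (DESeq2, Mgll), for SS + minocycline against SS and SS + RSD + minocycline against SS + minocycline in cortex within series B (both Abhd12, in fits calling 5225 and 4420 of 19253 genes), and for AA + RSD + minocycline against AA + RSD in cortex with mouse 9674 under its labels (Napepld). It fell from 4 to 0 for the number series in cortex with the share of reads outside genes as a term, where Dagla turned to -0.11. Among values that at least 1 fit called, the others that turned were Faah for SS + RSD + minocycline against SS + RSD in cortex (-0.10 with number series), Napepld for AA + RSD + minocycline against AA + RSD in cortex (0.04 with number series, 0.06 with the share of reads outside genes), and, without mouse 9889, Abhd12 in cortex for SS + RSD + minocycline against SS + minocycline (0.07, with -0.36 the other end of the range over SS + minocycline mice left out) and SS + minocycline against SS (-0.12, the other end 0.32). The causes were not tested. The mouse as a replicate block changed 1 call between the tissues, Abhd6 (0.08). Of 249 alternative values of genes that at least 1 fit called, 214 kept direction and side of the threshold. Of 183 further values of the 9 genes, called by no fit, 108 changed sign in at least 1 alternative (median size 0.06, largest 0.53). Genes called over the whole table moved far more: from 511 to between 0 and 3348 for SS + RSD against SS in cortex, and from 1234 to between 0 and 2449 for SS + RSD + minocycline against SS + RSD in hippocampus. In cortex the latter had 1270 higher and 492 lower, but 2210 and 147 with library totals alone, which moved the median of all genes from -0.05 to 0.07. Depth limits Cnr2 most, at 2 to 46 reads a library.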
